A study of Mus musculus with 21 samples.

Results

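The Ly6 surface protein genes measured here were Ly6c1, Ly6c2, Ly6a and Ly6e, 4 of the 12994 genes in a table of sorted mouse spleen T cells. The genes were chosen by name with earlier results on these samples known, and are treated here as selected on their differences between CD4+ and CD8+ T cells, which are therefore given as a description without a test. Which other values entered the choice is not recorded. All 4 genes were detected in each of the 21 samples, and all 4 had a mean normalized count above 2 in both populations, the limit for entering a comparison.

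The cells came from female C57BL6/J mice, a standard inbred laboratory strain. From weaning at 4 weeks of age the mice spent 4 weeks in an enriched environment (EE), a large cage holding running wheels, toys and tunnels that were changed regularly, or in a standard environment (SE), a smaller cage without objects. The CD4+ samples numbered 6 in EE and 5 in SE, and the CD8+ samples 6 in EE and 4 in SE, each from a different mouse within its group. Of the 12 mice, 9 gave both populations. The treatment protocol in the labels states a shared cage for the mice of an environment, so cage and environment cannot be told apart. The study's methods describe lysis of red blood cells and a sort of CD45+ CD11b- CD3+ cells carrying CD4 or CD8. The sorted cells are bulk samples, in which fewer cells expressing a gene and less RNA per cell cannot be told apart.

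Ly6 proteins are small, cysteine-rich proteins held on the outer cell surface by a glycosylphosphatidylinositol (GPI) anchor, without a segment that crosses the membrane. Ly6c1 and Ly6c2 encode near-identical proteins that together make up the Ly-6C antigen, used in mice to mark inflammatory monocytes and memory CD8+ T cells. Ly6a encodes Sca-1, known as a stem cell marker and also carried by activated T cells. Ly6e encodes a protein of thymocytes and other cells that is known to restrict coronaviruses. Ly6a and Ly6e are both known to be raised by interferons.

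The 4 genes lie in the Ly6 cluster on chromosome 15 of GRCm38, within 156.92 kb from 74955051 to 75111970. Ly6e (ENSMUSG00000022587) runs on the plus strand from 74955051 to 74959905. Ly6a (ENSMUSG00000075602) runs on the minus strand from 74994877 to 74998031, Ly6c1 (ENSMUSG00000079018) on the minus strand from 75044018 to 75048830, and Ly6c2 (ENSMUSG00000022584) on the minus strand from 75108158 to 75111970. Between Ly6c1 and Ly6c2 lie 59327 bases. Each principal transcript has 4 exons, and the coding sequences span 396 bases in Ly6c1 and Ly6c2, 405 in Ly6a and 411 in Ly6e.

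Ly6c1 and Ly6c2 are shown in sequence because counts of one could include molecules of the other. Their coding sequences are identical at 387 of 396 positions (97.7%). The first 240 bases, which hold 6 of the 9 differences, are given below from the start codon onward, with the differing bases in capitals.
Ly6c1: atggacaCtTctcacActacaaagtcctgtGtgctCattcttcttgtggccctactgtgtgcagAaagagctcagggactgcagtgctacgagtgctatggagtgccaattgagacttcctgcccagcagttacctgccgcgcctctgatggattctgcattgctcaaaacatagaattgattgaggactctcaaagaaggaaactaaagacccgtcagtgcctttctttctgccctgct
Ly6c2: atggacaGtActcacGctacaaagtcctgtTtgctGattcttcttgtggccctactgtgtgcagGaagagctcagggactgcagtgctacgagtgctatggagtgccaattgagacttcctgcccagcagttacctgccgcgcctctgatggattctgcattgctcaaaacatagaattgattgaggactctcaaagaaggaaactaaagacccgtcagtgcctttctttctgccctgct

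Within this stretch the differing bases all fall near the start codon, and the remaining differences lie after it. The coding sequence of Ly6a was identical to that of Ly6c1 at 82.0% of aligned positions, and that of Ly6e at 50.1%. Over windows of 50 bases in the principal transcripts, 292 of 795 windows of Ly6c1 (36.7%) and 255 of 773 windows of Ly6c2 (33.0%) occurred unchanged in a transcript of another gene, and 252 of them were shared between this pair. The molecular tag sat in the template-switching oligonucleotide, at the 5′ end of the transcript. Among the 100 windows nearest to that end, 40 of Ly6c1 and 0 of Ly6c2 occurred in another gene. The only genes that shared windows with Ly6c1 were Ly6c2 and Ly6a. For Ly6a 91 of 906 windows (10.0%) were shared and for Ly6e 0 of 2232. The study's methods name ENCODE options for STAR and default parameters for the Drop-seq counting, without saying how reads that fit several genes were treated. The split of counts between Ly6c1 and Ly6c2, and between Ly6c1 and Ly6a, is uncertain to that extent.

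The upstream regions of the pair differ more than their coding sequences. They are printed because the counts of the pair ran in opposite directions between the populations. The 250 bases before each RefSeq start site (GRCm38.p6, minus strand) lie at chr15:75048838-75049087 for Ly6c1 and chr15:75111972-75112221 for Ly6c2, and capitals mark bases that differ or have no partner in the alignment.
Ly6c1: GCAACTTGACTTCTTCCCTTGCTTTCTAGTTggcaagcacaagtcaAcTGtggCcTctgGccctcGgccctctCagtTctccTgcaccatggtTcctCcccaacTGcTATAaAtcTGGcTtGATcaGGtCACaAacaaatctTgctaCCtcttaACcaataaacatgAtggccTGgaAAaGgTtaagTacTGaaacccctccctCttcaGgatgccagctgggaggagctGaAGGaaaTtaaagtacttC
Ly6c2: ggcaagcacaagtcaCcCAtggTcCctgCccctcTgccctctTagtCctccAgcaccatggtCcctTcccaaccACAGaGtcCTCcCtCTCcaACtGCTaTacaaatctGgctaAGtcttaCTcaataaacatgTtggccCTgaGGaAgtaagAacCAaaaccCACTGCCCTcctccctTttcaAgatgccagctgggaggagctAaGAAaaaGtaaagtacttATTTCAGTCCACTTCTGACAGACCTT

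Over the 228 positions where the windows overlap, 164 were identical (71.9%), and the longest identical run was 20 bases. RefSeq start sites matched for 2 of the 4 genes. Both strands of these windows, taken with the 50 bases after each start, were searched for a core of the interferon-stimulated response element (GAAANNGAA), the gamma-activated sequence (TTCNNNGAA), a RUNX motif (TGTGGT) and a T-box motif (TCACACCT). RUNX and T-box factors are families that take part in the CD8+ T cell programme. A single match was found, a RUNX motif that reads as its reverse complement in the Ly6c2 window and begins 179 bases before the start. Of all 32851 windows of this length, 16.8% held the RUNX motif, 8.56% the response element core, 8.3% the gamma-activated sequence and 1.28% the T-box motif.

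The normalized values are counts of molecules carrying unique molecular identifiers, random tags that let copies of a molecule be counted once, divided by a size factor for each sample. Total molecules ranged from 145546 to 221454 per sample, and 9302 to 10137 genes were detected. Within groups, no sample looked like a library deposited again, since each of the 46 pairs differed beyond counting noise. Pairs from different groups were not examined in this way. CD8+ T cell markers (Cd8a, Cd8b1, Runx3) summed to 297 to 358 in CD8+ samples and 3.78 to 17.5 in CD4+ samples, and CD4+ T cell markers (Cd4, Cd40lg, Zbtb7b) to 79.1 to 124 in CD4+ samples and 0 to 2.79 in CD8+ samples. Libraries from 2 CD8+ samples stood apart, with a summed level of 5 erythroid markers (haemoglobin genes and Alas2) that reached 581 in EE replicate 6 and 1033 in SE replicate 3, while it stayed between 0 and 8.65 elsewhere among CD8+ samples. The differences of the 4 genes that rest on CD8+ samples are also given without both.

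Ly6c1 was a CD4+ T cell transcript in these samples. Its normalized count in CD4+ EE samples ranged from 59.0 to 75.6, with a median of 67.9 and a mean of 67.6 ± 6.39 (SD, n = 6). The 5 CD4+ SE samples held 82.4, 52.2, 60.3, 27.5 and 87.8, with a mean of 62.1 ± 24.3 (SD, n = 5). The 27.5 of SE replicate 5 was the lowest CD4+ value, and the highest belonged to the same environment. In CD8+ EE samples Ly6c1 ranged from 7.73 to 14.6, with a median of 11.2 and a mean of 11.1 ± 2.47 (SD, n = 6). The 4 CD8+ SE samples held 5.14, 2.79, 12.4 and 11.5, with a mean of 7.96 ± 4.72 (SD, n = 4). Each CD8+ value lay below each CD4+ value. Over both environments the mean was 65.1 ± 16.3 (SD, n = 11) in CD4+ cells and 9.87 ± 3.68 (SD, n = 10) in CD8+ cells, which is 6.59-fold higher in CD4+ cells. The CD8+ samples held 3 to 17 molecules of Ly6c1, so counting alone sets a relative error of 30.3% on a typical CD8+ value, against 12.6% in CD4+ cells.

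Ly6c2 showed the reverse order. Its normalized count in CD8+ EE samples ranged from 91.3 to 165, with a median of 143 and a mean of 138 ± 28.0 (SD, n = 6). The 4 CD8+ SE samples held 156, 75.4, 87.4 and 49.0, with a mean of 91.9 ± 45.5 (SD, n = 4). One SE sample reached the level of the upper EE samples and the other 3 lay below every EE sample. CD4+ EE samples ranged from 1.26 to 14.5, with a median of 7.80 and a mean of 8.1 ± 5.41 (SD, n = 6). CD4+ SE samples held 8.2, 9.15, 25.6, 13.3 and 4.50, with a mean of 12.2 ± 8.14 (SD, n = 5). The populations did not overlap. Over both environments the mean was 119 ± 41.0 (SD, n = 10) in CD8+ cells and 9.94 ± 6.76 (SD, n = 11) in CD4+ cells, 12.0-fold higher in CD8+ cells. The CD4+ samples held between 1 and 28 molecules of Ly6c2.

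Ly6a followed Ly6c1 in direction. The CD4+ EE samples ranged from 69.5 to 121, with a median of 85.8 and a mean of 88.7 ± 19.2 (SD, n = 6). The CD4+ SE samples held 68.0, 69.6, 71.3, 36.1 and 90.1, with a mean of 67.0 ± 19.5 (SD, n = 5). SE replicate 5, lowest for Ly6c1, was also lowest for Ly6a. CD8+ EE samples ranged from 21.3 to 32.9, with a median of 25.6 and a mean of 26.5 ± 4.97 (SD, n = 6). The 4 CD8+ SE samples held 11.1, 6.52, 11.5 and 32.7, with a mean of 15.5 ± 11.7 (SD, n = 4). Again 3 SE samples lay below every EE sample and the remaining one, replicate 6, lay near the top of the EE range. The mean over both environments was 78.8 ± 21.5 (SD, n = 11) in CD4+ cells and 22.1 ± 9.58 (SD, n = 10) in CD8+ cells, 3.57-fold higher in CD4+ cells with no overlap.

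Ly6e was high in both populations and differed least. CD4+ EE samples ranged from 238 to 302, with a median of 278 and a mean of 273 ± 29.8 (SD, n = 6), and CD4+ SE samples held 271, 247, 332, 183 and 270.3, with a mean of 261 ± 53.4 (SD, n = 5). CD8+ EE samples ranged from 194 to 228, with a median of 209 and a mean of 209 ± 12.8 (SD, n = 6), and CD8+ SE samples held 206, 219, 176 and 173, with a mean of 194 ± 22.7 (SD, n = 4). The lowest CD4+ value was again SE replicate 5, and it fell within the CD8+ range. The mean was 267 ± 40.4 (SD, n = 11) in CD4+ cells and 203 ± 17.9 (SD, n = 10) in CD8+ cells, 1.32-fold higher in CD4+ cells. Within EE the ranges of the populations were apart, whereas within SE they overlapped.

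**Figure D1:**
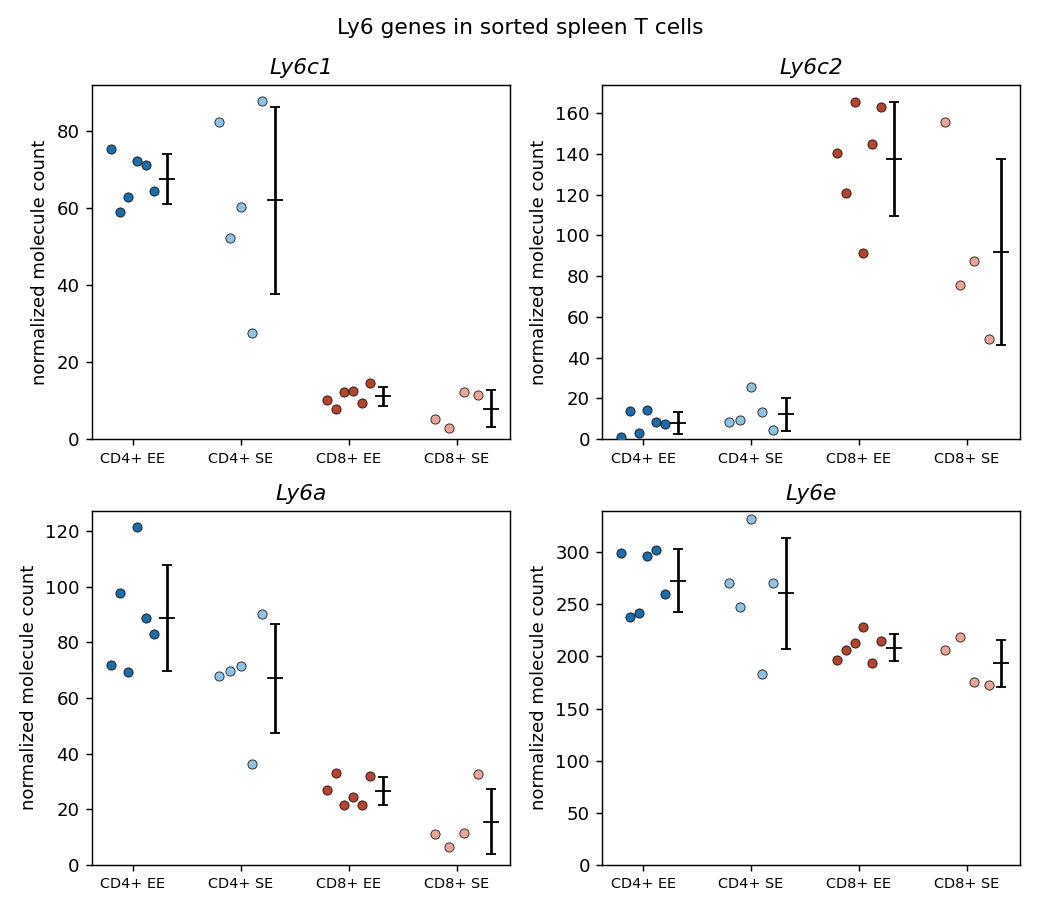
Normalized molecule counts (vertical axes, starting at 0) of Ly6c1, Ly6c2, Ly6a and Ly6e in the 4 groups, with a point per sample and the mean ± SD beside it. Ly6c1 and Ly6a are higher in CD4+ cells and Ly6c2 in CD8+ cells without overlap, and the CD8+ SE samples of Ly6c2 and Ly6a spread around or below the EE samples.

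The order of the 4 groups was CD4+ EE, CD4+ SE, CD8+ EE and CD8+ SE for Ly6c1, Ly6a and Ly6e, from high to low. For Ly6c2 it was CD8+ EE, CD8+ SE, CD4+ SE and CD4+ EE. Neighbours within a population overlapped for each gene. CD4+ SE and CD8+ EE were apart for Ly6c1 and Ly6a, as were CD8+ SE and CD4+ SE for Ly6c2.

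On the scale of log2(normalized count + 1), the difference of CD8+ minus CD4+ cells in limma was -2.70 (SE 0.18) for Ly6c1, 3.55 (SE 0.22) for Ly6c2, -1.96 (SE 0.16) for Ly6a and -0.40 (SE 0.076) for Ly6e. Ranked by this difference among 7938 genes, Ly6c2 stood at place 7 from the CD8+ end, and Ly6c1 and Ly6a at places 12 and 30 from the CD4+ end. Ly6e stood at place 1033 from the CD4+ end. Of the 7938 genes, 349 (4.4%) had an adjusted p under 0.05, 164 higher and 185 lower in CD8+ cells. Non-overlapping ranges were found for 69 of the 7938 genes (0.869%), among them Ly6c1, Ly6c2 and Ly6a. These shares are given for scale only. Without the 2 CD8+ libraries high in erythroid markers, the differences were -2.87 (SE 0.18), 3.51 (SE 0.24), -1.96 (SE 0.17) and -0.38 (SE 0.083) in the same order of genes.

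The 9 mice with both populations gave the same picture animal by animal. Within a mouse, CD8+ minus CD4+ on the log2 scale ran from 2.58 to 5.97 for Ly6c2, with a median of 3.98. For Ly6c1 it ran from -3.76 to -1.99, with a median of -2.77, and for Ly6a from -2.51 to -1.36, with a median of -1.64. For Ly6e, which overlapped when all samples were pooled, it ran from -0.64 to -0.18, with a median of -0.39. Ly6c2 was higher in the CD8+ cells of 9 of 9 mice and the other genes in 0 of 9.

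**Figure D2:**
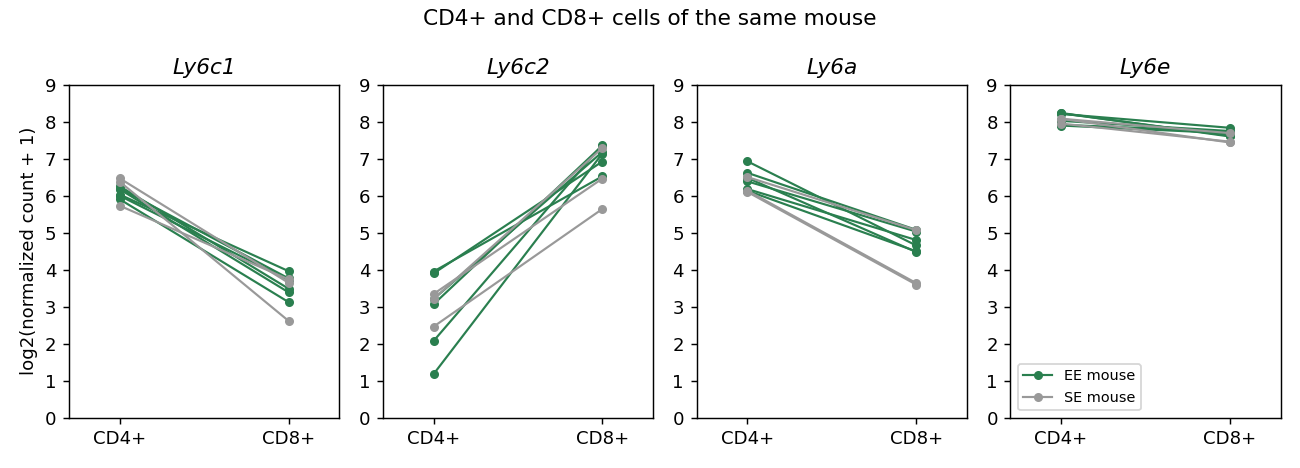
Levels of the 4 genes as log2(normalized count + 1) in CD4+ and CD8+ cells of the same mouse, with a line per mouse for 6 EE mice (green) and 3 SE mice (grey). The lines of Ly6c1, Ly6a and Ly6e fall and those of Ly6c2 rise in 9 of 9 mice.

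Because both genes feed the Ly-6C antigen, their balance was followed within samples, on the log2 scale with a pseudocount of 1. Ly6c2 minus Ly6c1 ran from -5.08 to -0.997 in the 11 CD4+ samples and from 2.00 to 4.68 in the 10 CD8+ samples. The balance turned over between the populations, with a median of -2.97 in CD4+ and 3.65 in CD8+ cells. The summed normalized count of the pair ran from 40.8 to 92.4 in CD4+ samples, with a median of 76.8, and from 60.6 to 178 in CD8+ samples, with a median of 140. These sums overlapped, unlike the counts of either gene.

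**Figure D3:**
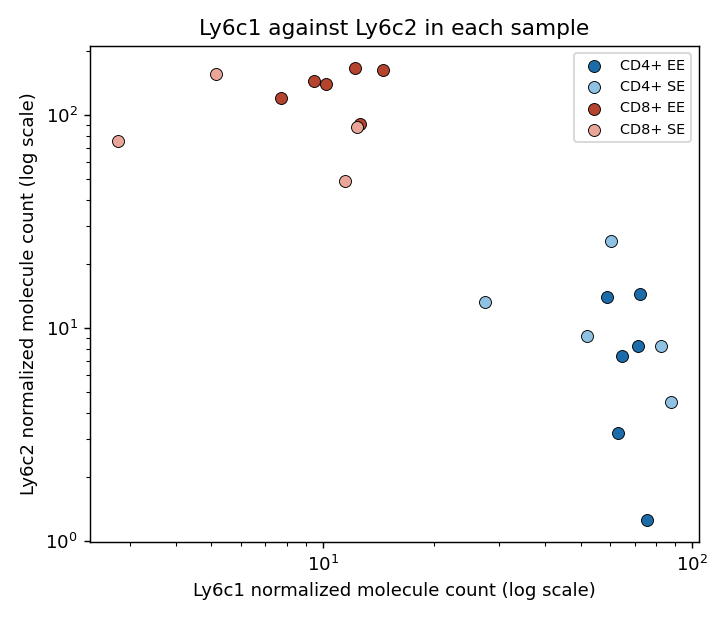
Normalized count of Ly6c2 against that of Ly6c1 in each of the 21 samples, both on log axes, coloured by group. CD4+ samples lie at high Ly6c1 and low Ly6c2, and CD8+ samples at the opposite corner.

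The minor gene of each pair was not at zero. The mean of Ly6c2 in CD4+ cells was 8.32% of its mean in CD8+ cells, whereas Cd8a, the alpha chain of the CD8 coreceptor, stood at 0.797%, Cd8b1, its beta chain, at 1.76% and Runx3, a transcription factor of the CD8+ lineage, at 27.9%. Conversely, Ly6c1 in CD8+ cells was at 15.2% of its CD4+ mean and Ly6a at 28.0%, against 0.641% for Cd4, 1.12% for Cd40lg, the CD40 ligand of helper T cells, and 0.803% for Zbtb7b, a transcription factor of the CD4+ lineage. The share of these low counts that comes from the near-identical copy, or from sequence shared by Ly6c1 and Ly6a, was not tested.

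Environments were then compared within each population. In CD8+ cells both Ly6c2 and Ly6a had higher means in EE, and neither passed the adjusted threshold of 0.05. For Ly6c2 the log2 difference of EE minus SE was 0.67 (SE 0.16, 95% interval 0.34 to 1.00, limma adjusted p = 0.407, unadjusted p = 0.000156), place 3 of 7840 genes by p. The EE mean was 1.5-fold the SE mean, and 5 of 6 EE samples exceeded the SE mean. For Ly6a the difference was 0.95 (SE 0.27, 95% interval 0.41 to 1.50, limma adjusted p = 0.661, unadjusted p = 0.000893), place 9 by p, with a 1.71-fold higher mean in EE, and 6 of 6 EE samples exceeded the SE mean. Ly6c1 differed by 0.59 (SE 0.34, 95% interval -0.093 to 1.28, limma adjusted p = 0.962) and Ly6e by 0.11 (SE 0.091, 95% interval -0.071 to 0.30, limma adjusted p = 0.963). Limma called 0 of 7840 genes (0%) in this comparison, with 413 at an unadjusted p under 0.05. Both edgeR and DESeq2 on the recovered molecules also called 0. Ranges of EE and SE were apart for 83 genes (1.06%), of which 0 were among the 4.

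The differences of Ly6c2 and Ly6a moved with single SE samples. Without SE replicate 1, whose Ly6c2 was 156, the difference of Ly6c2 was 0.97 (limma adjusted p = 0.000498), and without SE replicate 6, whose Ly6c2 was 49.0, it was 0.42 (limma adjusted p = 0.672). Without SE replicate 6, whose Ly6a was 32.7, the difference of Ly6a was 1.38 (limma adjusted p = 0.0165). That of Ly6c1 was 0.24 without SE replicate 2 (limma adjusted p = 0.995), and it ran up to 0.85 with other samples left out. That of Ly6e was 0.061 without SE replicate 6, 0.069 without SE replicate 3 and 0.17 without SE replicate 2. The adjusted p of Ly6c2 also fell to 0.00618 without the filter on low means, while edgeR on the recovered molecules gave 0.805 and DESeq2 gave 1.00. Over the alternatives that kept all samples of the comparison it ran from 0.00618 to 1.00, and that of Ly6a from 0.338 to 1.00. The SE of Ly6c2, 0.16 in the main fit, ran from 0.13 without that filter to 0.32 in one fit of all samples. In DESeq2 it was 0.31. Without both CD8+ libraries high in erythroid markers, Ly6c2 differed by 0.64 (SE 0.18, limma adjusted p = 0.867), Ly6a by 0.84 (SE 0.31, limma adjusted p = 0.892), Ly6c1 by 0.77 (SE 0.39, limma adjusted p = 0.907) and Ly6e by 0.060 (SE 0.10, limma adjusted p = 0.985).

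In the CD8+ samples a summed level of the 5 monocyte and macrophage markers present in the table, out of 7 listed, ranged from 3.76 to 6.80 in EE and from 7.71 to 18.3 in SE. These ranges did not overlap, a state found for 1.06% of single genes in this comparison. Ly6c2 is itself a transcript of inflammatory monocytes. Lyz2, which encodes lysozyme, was at 0 in each CD8+ EE sample and at 0.856 to 11.5 in the SE samples. Ms4a6c, a membrane protein of monocytes, was at 3.76 to 6.80 in EE and 4.81 to 11.5 in SE (limma log2 difference of EE minus SE -0.60, SE 0.38). Csf1r was also at 0 in each EE sample and at 0 to 0.961 in SE, and Fcer1g was at 0 in each CD8+ sample. Ccr2 was at 0 to 1.72 in EE and at 0 to 0.961 in SE. The EE sums thus held only Ms4a6c and Ccr2. CD8+ T cell markers overlapped between environments, at 304 to 354 in EE and 297 to 358 in SE. The part of other cells in the Ly6 differences was not tested.

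In CD4+ cells, 0 of the 4 genes passed. Ly6a had the lowest p, with a log2 difference of EE minus SE of 0.43 (SE 0.17, 95% interval 0.086 to 0.78, limma adjusted p = 0.765, unadjusted p = 0.0153), and 6 of 6 EE samples exceeded the SE mean. Ly6c2 differed by -0.62 (SE 0.41, 95% interval -1.44 to 0.20, limma adjusted p = 0.878), Ly6c1 by 0.22 (SE 0.19, 95% interval -0.15 to 0.60, limma adjusted p = 0.912) and Ly6e by 0.084 (SE 0.11, 95% interval -0.15 to 0.31, limma adjusted p = 0.954). Limma called 1 of 7939 genes (0.0126%), which was not a Ly6 gene. Ranges were apart for 36 genes (0.453%), of which 0 were among the 4. Without SE replicate 5, lowest for Ly6c1, Ly6a and Ly6e, the difference of Ly6a was 0.23, and those of Ly6c1 and Ly6e both came to -0.036. The difference of Ly6c2 was -0.28 without EE replicate 1 and -0.32 without SE replicate 4. SE replicate 5 had 49.4 of summed B cell markers, within the 24.7 to 108 of the CD4+ samples. Its plasmacytoid dendritic cell markers summed to 23.7, the highest of the CD4+ samples, which began at 3.38. Its monocyte and macrophage markers summed to 4.75, the lowest of the CD4+ samples, which reached 24.8. The part of other cells in its Ly6 levels was not tested.

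**Figure D4:**
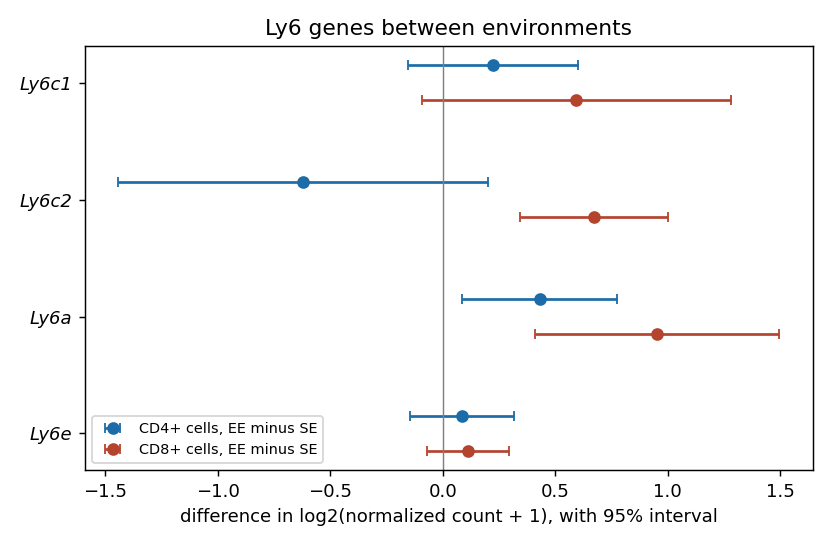
Difference of EE minus SE in log2(normalized count + 1) for each gene in CD4+ cells (blue) and CD8+ cells (red), with 95% intervals from limma that are not adjusted for the number of genes. Intervals of Ly6a in both populations and of Ly6c2 in CD8+ cells lie above 0, although 0 of these values passed after adjustment over all genes.

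Whether the difference between environments varied with the population was tested as an interaction. For Ly6c2, lower on average in EE among CD4+ cells and higher among CD8+ cells, the difference of the differences was 1.29 (SE 0.45, 95% interval 0.40 to 2.18, limma adjusted p = 0.924, unadjusted p = 0.00503). With the mouse as a block it came to 0.73 (SE 0.42, limma adjusted p = 0.885). The interaction was 0.37 (SE 0.36) for Ly6c1, 0.52 (SE 0.32) for Ly6a and 0.028 (SE 0.15) for Ly6e, with a limma adjusted p of 0.994 for each. Leaving out a sample moved it from 0.018 (without CD8+ SE replicate 2) to 0.63 (without CD4+ SE replicate 5) for Ly6c1, and from 0.22 (without CD8+ SE replicate 2) to 0.95 (without CD8+ SE replicate 6) for Ly6a. Without both libraries high in erythroid markers the interaction was 1.26 (SE 0.49) for Ly6c2, 0.55 (SE 0.37) for Ly6c1, 0.41 (SE 0.34) for Ly6a and -0.024 (SE 0.17) for Ly6e. Of 7938 genes, 0 (0%) passed, with 393 at an unadjusted p under 0.05, and 0 passed in edgeR or DESeq2. A difference between the populations in the response of the Ly6 genes to EE was not shown.

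The spread between CD8+ SE mice was wide for the 3 genes of the Ly6a and Ly6c type. The coefficient of variation of Ly6c2 was 49.5% in CD8+ SE samples and 20.3% in CD8+ EE samples, where counting alone gives 9.94% and 8.13%. For Ly6a it was 75.7% in SE and 18.8% in EE, where counting alone gives 24.2% and 18.5%. For Ly6c1 it was 59.3% in SE and 22.2% in EE, where counting alone gives 33.8% and 28.6%. For Ly6e it was 11.7% and 6.12%, and counting alone gives 6.85% and 6.60%. Single samples carried much of this spread, which was 27.8% for Ly6c2 without SE replicate 1 (12.4% in EE without replicate 4) and 28.5% for Ly6a without SE replicate 6. Among CD4+ cells the coefficient was 39.2% in SE and 9.44% in EE for Ly6c1 (24.2% in SE without replicate 5), 66.9% in both environments for Ly6c2, 29.0% and 21.6% for Ly6a, and 20.5% and 10.9% for Ly6e. Without SE replicate 5 the SE value was 13.8% for Ly6a and 13.0% for Ly6e, without SE replicate 4 it was 41.1% for Ly6c2, and without EE replicate 4 the EE value of Ly6a was 14.3%. The order of the environments thus turned for Ly6a without SE replicate 5. These spreads are described for groups of 4 to 6 mice and were not compared by a test.

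Relations among the 4 genes across samples were weakly supported. Of 16 relations, 6 pairs in each population and the CD4+ and CD8+ levels of each gene within mice, 0 passed after Benjamini-Hochberg adjustment (lowest adjusted permutation p = 0.298). The closest was Ly6c1 with Ly6e over the 11 CD4+ samples (Pearson's r of 0.76 with a permutation p of 0.0354, Spearman's rho of 0.54 with a permutation p of 0.0952), and r fell to 0.41 once the 2 most distant samples were left out. Ly6c1 with Ly6a gave 0.75 in CD4+ samples (permutation p = 0.0558, Spearman rho = 0.34, permutation p = 0.313) and 0.72 in the 10 CD8+ samples (permutation p = 0.0442, Spearman rho = 0.37, permutation p = 0.296). Both rested on 2 samples, without which r was 0.097 and -0.21. Within the 9 mice, Ly6a in CD4+ and CD8+ cells gave an r of 0.55 (exact permutation p = 0.104, adjusted p = 0.333; Spearman's rho of 0.67, exact permutation p = 0.0589), and r was 0.64 with 2 mice left out.

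Over all 21 samples, among 2727 genes with a mean above 10, the genes with patterns most like each Ly6 gene were found by Pearson's r on the log2 scale. The samples fall into 2 populations, so these values describe that split and carry no p. For Ly6c1 they were Ly6a (0.93), Cd4 (0.92) and Cd40lg (0.90). For Ly6c2 they were Cd8a (0.93), Cd8b1 (0.91) and Nkg7 (0.90), the last a granule protein of cytotoxic cells. For Ly6a they were Ly6c1 (0.93), Prr13 (0.87) and Cd4 (0.85). The part of shared sequence in the likeness of Ly6c1 and Ly6a was not tested. For Ly6e they were Gimap4 (0.83), a GTPase of lymphocytes, Gpr183 (0.82), an oxysterol receptor that guides lymphocyte migration, and Ly6c1 (0.76).

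After subtracting group means, Ly6c1 was nearest to Phip (0.70), Ly6a (0.66) and Ndufb6 (0.65), and Ly6a to Phip (0.72), Papola (0.72) and S100a6 (0.68). Ly6c2 was nearest to Gdi2 (0.80), Ywhae (0.78) and Ppm1g (0.78). Ly6e was nearest to AW112010 (0.82), Lsm6 (0.78) and Gvin1 (0.68), of which Gvin1 belongs to a family of interferon-inducible GTPases. These are the 3 highest of 2727 values for each gene, over 21 samples.

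Other genes of the family were scarce in these T cells. Of 36 further Ly6/uPAR genes listed, 6 were in the table and 2 were abundant enough to test between populations. These were Ly6k, with 3.73 ± 2.69 (SD, n = 11) in CD4+ and 5.34 ± 1.53 (SD, n = 10) in CD8+ cells (limma adjusted p = 0.418), and Lypd6b, with 2.52 ± 1.21 (SD, n = 11) and 2.63 ± 1.99 (SD, n = 10; limma adjusted p = 0.991). Their median difference of CD8+ minus CD4+ was 0.30, beside 0.0073 over all 7938 genes.

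Of 8 other GPI-anchored proteins of T cells tested, 1 was higher and 1 was lower in CD8+ cells and the remaining 6 did not pass, where 4.4% of all genes were called. Their median difference was 0.12. Izumo1r, which encodes folate receptor 4 of regulatory and anergic CD4+ T cells, was at 40.6 ± 13.5 (SD, n = 11) in CD4+ and 7.06 ± 5.35 (SD, n = 10) in CD8+ cells (log2 difference -2.55, SE 0.26). Thy1, the pan-T-cell antigen CD90, was at 42.3 ± 6.20 (SD, n = 11) and 61.4 ± 2.99 (SD, n = 10; log2 difference 0.54, SE 0.11). Of 20 tested genes that build or attach the GPI anchor, 0 passed in either direction, with a median difference of -0.016.

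Antigen-experienced CD8+ T cell genes, the programme that Ly-6C marks in memory cells, gave 5 higher and 2 lower in CD8+ cells among 11 tested, with a median difference of 0.71, where 4.4% of all genes were called. The list held 24 genes, of which 20 were in the table, and those with too low a mean were not tested. Nkg7 was at 14.7 ± 9.03 (SD, n = 11) in CD4+ and 150 ± 13.6 (SD, n = 10) in CD8+ cells. Klrd1, which encodes the CD94 receptor chain, was at 7.31 ± 3.33 (SD, n = 11) and 57.0 ± 11.5 (SD, n = 10). Ctsw, a cathepsin of cytotoxic lymphocytes, was at 11.5 ± 4.74 (SD, n = 11) and 71.1 ± 14.8 (SD, n = 10). The genes lower in CD8+ cells, named after their values were seen, were Cd44, an adhesion receptor that marks memory T cells (log2 difference -1.49, SE 0.32, limma adjusted p = 0.000851), and Itgb1, the integrin beta 1 chain (log2 difference -1.59, SE 0.24, limma adjusted p = 8.7e-07). Between EE and SE, 0 of 11 passed in CD8+ cells and 0 of 12 in CD4+ cells, and the medians were 0.062 and 0.24. In CD8+ cells, EE minus SE was 0.062 (SE 0.10) for Nkg7, 0.0077 (SE 0.16) for Klrd1 and 0.15 (SE 0.15) for Ctsw. Over the 11 genes, of which 7 were above 0, the values ran from -0.75 (SE 0.41, limma adjusted p = 0.962) for Itgb1 to 1.96 (SE 0.47, limma adjusted p = 0.407) for Ccl5, a chemokine of memory CD8+ T cells named as the end of the range, after its value was seen.

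Interferon-stimulated genes, the group to which Ly6a and Ly6e are known to belong, gave 2 higher and 1 lower in CD8+ cells among 35 tested, where 4.4% of all genes were called, with a median difference of 0.17. Ifi27l2a, lower in CD8+ cells like Ly6a and Ly6e, was at 229 ± 27.0 (SD, n = 11) in CD4+ and 145 ± 27.3 (SD, n = 10) in CD8+ cells. Ifi47 was at 29.7 ± 5.25 (SD, n = 11) and 40.4 ± 4.87 (SD, n = 10), and Gbp2, a guanylate-binding protein, at 2.97 ± 1.91 (SD, n = 11) and 7.10 ± 2.41 (SD, n = 10). Between environments 0 of 36 passed in CD8+ cells, where 22 of 36 were above 0 with a median of 0.11 beside -0.0078 over all genes. These values ran from -0.52 (SE 0.60) for Rsad2 to 1.56 (SE 0.52, limma adjusted p = 0.680) for Oas2. Both genes were named as the ends of the range. Ifi27l2a was at 0.40 (SE 0.11, limma adjusted p = 0.661). In CD4+ cells 0 of 32 passed, 26 of 32 were above 0 and the median was 0.26 beside 0.0012 over all genes. The genes of a list vary together across samples, so these counts describe the list and call nothing.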

How the data were processed

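Sorted spleen T cells of 21 samples were profiled by sequencing of tagged cDNA. Per the labels and the study's methods, the authors trimmed reads with cutadapt, aligned them with STAR 2.4.0a to mm10, tallied molecules for each gene by their tags with the Drop-seq tools and divided by DESeq2 size factors, so the deposited signal is a normalized molecule count. Columns were matched to samples by the labels. Division by the smallest positive value of a column gave whole molecules for 100% of values (tolerance 0.001), used for edgeR 4.0.16 and DESeq2 1.42.0. P-values came from limma 3.58.1 (R 4.3.3, trend) on log2(value + 1), a scale that understates changes of low genes, for genes with a mean above 2, with Benjamini-Hochberg adjustment over all genes and a threshold of 0.05. Environments were fitted within each population, the populations and the interaction over all samples. Each replicate of a group is a different mouse, from 1 shared cage per the treatment protocol. The limma p-values rest on the spread between mice of such a cage, drawn towards the spread of genes of similar level.

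CD4+ and CD8+ samples with the same environment and number come from the same mouse per the labels. Deviations from group means correlated at -0.015 to 0.035 over the 9 pairs. Correlations between samples used two-sided permutation tests (100000 resamples, or exact enumeration for 9 mice). The members and gene lists were chosen with earlier results of these data known. The genes named are the 4 members, up to 3 genes of each list with the smallest p between populations among those passing, the 3 nearest patterns and cell type markers. Ly6k, Lypd6b, Cd44, Itgb1, Ccl5, Oas2 and Rsad2 were named after their values were seen. The fits were tested on simulated data. Alternatives were a pseudocount of 0.5, no filter, a mean above 10, equal totals, edgeR, DESeq2, a replicate block, one fit of all samples and each sample left out, and, chosen after seeing the data, leaving out 2 libraries high in erythroid markers. Gene models came from GENCODE M21, start sites from RefSeq, and alignments from Biopython 1.88.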

Additional observations from a re-analysis of the deposited data

Results flagged for a closer look

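Over 52 sets of values (4 Ly6 genes and 9 marker sums in 4 groups), 7 marker sums had a sample far from the rest of its group by Dixon's ratio, where chance gives about 2.6, and 0 were among the values of the Ly6 genes. Erythroid markers summed to 581 in CD8+ EE replicate 6 against at most 3.88 in the other EE samples, and to 1033 in CD8+ SE replicate 3 against at most 8.65 in the other SE samples. Monocyte and macrophage markers summed to 24.8 in CD4+ SE replicate 6 against at most 7.32 in the other SE samples, and the Ly6c2 of that sample was 4.50, with the part of monocyte RNA in it not tested. CD4+ T cell markers summed to 124 in CD4+ EE replicate 2 against at most 95.8, and to 111 in CD4+ SE replicate 6 against at most 87.4. Natural killer cell markers summed to 4.58 in CD4+ SE replicate 3 against at most 1.13, and plasma cell markers to 3.44 in CD8+ EE replicate 6 against at most 0.930.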

How the results depend on the processing

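Of 266 recomputed environment and interaction values of the 4 genes, 254 kept direction and side of the threshold, 8 reversed and 4 passed it. The 116 recomputed differences between populations, which have no test, kept direction and moved by less than the spread between samples. Ly6c2 in CD8+ cells, 0.67 between environments, passed without a filter on means (0.67, adjusted p = 0.00618) and under a replicate block of animal numbers (0.79, adjusted p = 0.0428), although these numbers mark different mice in EE and SE and deviations correlated at a mean of 0.0052 over 4 pairs (0.0083 over 5 pairs in CD4+ cells). The mouse block, which joins CD4+ and CD8+ samples, changed no call of the 4 genes and gave 311 calls between populations. Leaving out a sample gave 0.42 to 0.97 for Ly6c2 and 0.66 to 1.38 for Ly6a in CD8+ cells, -0.036 to 0.37 for Ly6c1 and -0.036 to 0.18 for Ly6e in CD4+ cells, and -0.065 to 0.15 for the interaction of Ly6e, which was -0.024 without both libraries high in erythroid markers. Genes called between environments in CD4+ cells, 1 in limma, numbered 0 with a pseudocount of 0.5, a mean above 10, the replicate block or one fit of all samples, 3 without a filter, 2 with edgeR, and 0 to 3 with a sample left out. In CD8+ cells 0 became 3 without a filter, 2 with the block and 0 to 3 with a sample left out. Between populations 349 became 216 with a mean above 10 (117 higher and 99 lower in CD8+ cells), 421 without a filter, 300 to 362 with a sample left out and 297 without both libraries. Ly6c1 in CD8+ and Ly6c2 in CD4+ cells had too low a mean to be tested above 10. Depth limits the low counts, down to 1 molecule of Ly6c2 and 3 of Ly6c1.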
